A study of Mus musculus with 9 samples.

Results

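The genes described are those of the mitochondrial ribosome, taken as every protein-coding gene whose mouse symbol starts with Mrpl or Mrps followed by a digit. They are 78 of the 53465 genes in the deposited count table, 49 with an Mrpl and 29 with an Mrps symbol, on 17 chromosomes. Their messages were measured by RNA sequencing in 3 groups of 3 mouse macrophage libraries. Lining macrophages (A, B and C) and interstitial macrophages (D, E and F) were sorted from synovial tissue of hind paws of Cx3cr1-GFP mice, in which the fractalkine receptor locus drives green fluorescent protein (GFP). Both sorts required CD45, CD11b and F4/80, and lining cells were GFP+ while interstitial cells were GFP-. Bone marrow-derived macrophages (BMDM; G, H and I) came from C57BL/6 marrow cultured 5 days with MCSF, the growth factor that turns precursors into macrophages, supplied as conditioned medium. BMDM therefore differ from both sorted groups in strain, tissue, culture and the absence of a sort, which cannot be told apart. Ages, and whether the libraries of a group are separate animals, are not given in the sources used here, so p-values measure the spread between these libraries.

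The mitochondrial ribosome sits in the mitochondrial matrix and translates the messages encoded in mitochondrial DNA, all of which specify subunits of the respiratory chain and of ATP synthase. Its RNAs are encoded in mitochondrial DNA, whereas its proteins are encoded in the nucleus, made in the cytosol and imported. The large subunit joins amino acids and holds the exit tunnel, and the small subunit holds the message and reads its codons. Some of its proteins descend from bacterial ribosomal proteins and others are specific to mitochondria. By structure, 51 of the 78 genes encode large subunit proteins, among them Mrps18a and Mrps30 despite their symbols, and 26 encode small subunit proteins. The remaining gene, Mrps36, encodes a protein now known as a component of the α-ketoglutarate dehydrogenase complex and is not placed in either subunit.

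The stretch of 250 bases before the transcription start is shown for 5 of the genes, since known regulators of nuclear genes for mitochondrial proteins bind short motifs close to the start. Mrpl45, Mrps15, Mrpl49 and Mrps27 are genes whose messages were lower in both sorted groups than in BMDM, and Mrpl3 is a gene whose value in each sorted library was above that in each BMDM library. These 5 were picked after their values were seen, among genes whose RefSeq start lies close to the gene end in the count table. Sequences are from RefSeq (GRCm38.p6), written 5′ to 3′ on the gene's strand: chr11:97315466-97315715 (+) for Mrpl45, chr4:126046678-126046927 (+) for Mrps15, chr19:6057756-6058005 (-) for Mrpl49, chr13:99344536-99344785 (+) for Mrps27 and chr9:105053018-105053267 (+) for Mrpl3. Capitals mark the letters of 4 motifs on either strand, GCGCA and GCGC parted by any base (NRF1), CCGGAAG (ETS family, which includes GABPA), AAGATGGCG (YY1) and GGGCGG (SP1), and no base lies in more than 1 of them.
Mrpl45: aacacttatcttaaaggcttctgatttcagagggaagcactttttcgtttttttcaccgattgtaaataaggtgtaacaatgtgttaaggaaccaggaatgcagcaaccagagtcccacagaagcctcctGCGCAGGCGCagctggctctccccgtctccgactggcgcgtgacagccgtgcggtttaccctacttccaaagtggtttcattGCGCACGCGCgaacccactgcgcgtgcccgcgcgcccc
Mrps15: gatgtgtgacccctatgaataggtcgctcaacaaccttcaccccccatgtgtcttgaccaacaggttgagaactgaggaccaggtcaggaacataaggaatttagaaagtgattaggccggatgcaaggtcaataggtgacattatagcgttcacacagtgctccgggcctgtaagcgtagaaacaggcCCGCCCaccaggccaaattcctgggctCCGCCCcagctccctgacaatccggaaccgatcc
Mrpl49: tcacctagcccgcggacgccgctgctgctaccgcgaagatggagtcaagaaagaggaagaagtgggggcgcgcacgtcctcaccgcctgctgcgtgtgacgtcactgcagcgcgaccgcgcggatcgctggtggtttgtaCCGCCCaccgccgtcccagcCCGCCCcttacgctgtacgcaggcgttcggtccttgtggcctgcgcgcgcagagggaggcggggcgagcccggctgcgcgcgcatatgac
Mrps27: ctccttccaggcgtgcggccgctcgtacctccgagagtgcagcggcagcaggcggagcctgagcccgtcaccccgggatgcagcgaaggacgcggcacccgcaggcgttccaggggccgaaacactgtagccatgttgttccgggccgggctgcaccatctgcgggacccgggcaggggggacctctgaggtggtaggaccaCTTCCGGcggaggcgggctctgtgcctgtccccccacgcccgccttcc
Mrpl3: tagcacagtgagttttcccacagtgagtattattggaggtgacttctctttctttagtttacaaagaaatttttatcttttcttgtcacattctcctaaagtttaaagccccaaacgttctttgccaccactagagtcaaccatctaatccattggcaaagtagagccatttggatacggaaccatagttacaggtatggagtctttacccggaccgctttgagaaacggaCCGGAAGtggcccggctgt
Mrpl45 holds 2 NRF1 motifs, which begin 120 and 38 bases before the start. Mrps15 and Mrpl49 hold 2 SP1 motifs each, Mrps27 an ETS motif 48 bases before the start, and Mrpl3 an ETS motif 19 bases before it. RefSeq windows of 300 bases, from 250 before to 50 after the start, were matched to 69 of the 78 genes, with 75 windows in all. The NRF1 motif was in 17.3% of these windows, against 9.95% of the windows of all tested protein-coding genes and 4.60% of all 32851 windows. The ETS motif was in 34.7%, against 17.7% and 8.86%, and the YY1 motif in 10.7%, against 3.05% and 1.40%. The SP1 motif was in 52.0%, against 62.1% and 35.7%. Also searched, but not marked in capitals, were TGACGTCA (CRE), in 2.67% against 3.02% and 1.79%, and CACGTG (E-box), in 9.33% against 9.93% and 7.15%. Among the windows of genes lower in both sorted groups than in BMDM, 5 of 22 held the NRF1 motif and 6 of 22 the ETS motif. Among the windows of genes called in neither comparison with BMDM, these were 4 of 36 and 15 of 36. The YY1 motif was in 4 of 22 and 3 of 36, and the SP1 motif in 12 of 22 and 24 of 36. The CRE motif was in 1 of 22 and 1 of 36, and the E-box in 0 of 22 and 5 of 36. Differences between these shares were not tested. A match of letters is a description of the window only.

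The libraries held between 2194920 and 11137451 counts in lining, between 2238261 and 10807462 in interstitial and between 19427273 and 22499823 in BMDM. A count of 3 corresponded to 0.273 to 1.45 CPM (counts scaled to library size and composition) in the sorted libraries and to 0.130 to 0.149 in BMDM, and such floors cover counting error only. All 8 macrophage markers were detected in every group, with summed levels of 9376 to 10979 CPM in lining libraries, 6480 to 9620 CPM in interstitial libraries and 5166 to 5437 CPM in BMDM libraries. The 8 include genes of the sort gate and the reporter (Ptprc, Itgam, Adgre1 and Cx3cr1), so detection in sorted cells is partly given by the sort. Of the 8, 6 were higher in lining than in BMDM, and 3 were higher and 2 lower in interstitial than in BMDM. Between lining and interstitial, 3 were higher in lining. Median coefficients of variation of the ribosomal genes within a group were 26.8% in lining, 26.8% in interstitial and 5.12% in BMDM. Of the 78 genes, 77 passed the filter on low counts and were tested. The exception was Mrpl53, a large subunit gene, which had 0 counts in each library. In the annotation 88.0% of its exonic bases also belong to Gm42688 on the same strand, and reads over both genes were not counted, so its level was not measurable here.

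As a whole, the 78 genes took up 0.173 ± 0.00696% of all counts in lining, 0.168 ± 0.0131% in interstitial and 0.286 ± 0.00908% in BMDM (SD, n = 3 each). Their summed level was 1924.9, 1783.6 and 1724.4 CPM in lining A, B and C, and 1703.2, 1511.9 and 1788.4 CPM in interstitial D, E and F. In BMDM G, H and I it was 2697.8, 2851.5 and 2765.7 CPM. Each BMDM library was thus above all 6 sorted libraries, while the lining and interstitial libraries overlapped. Large subunit genes summed to 1290 ± 51.8 CPM in lining, 1159 ± 92.4 CPM in interstitial and 1912 ± 49.7 CPM in BMDM. Small subunit genes summed to 516 ± 51.2, 506 ± 52.0 and 851 ± 31.0 CPM in the same groups (SD, n = 3 each). The ratio of the large to the small sum was 2.35 to 2.61 in lining, 2.21 to 2.38 in interstitial and 2.19 to 2.30 in BMDM libraries. In bulk libraries, fewer cells of a kind and less RNA per cell cannot be told apart.

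**Figure D1:**
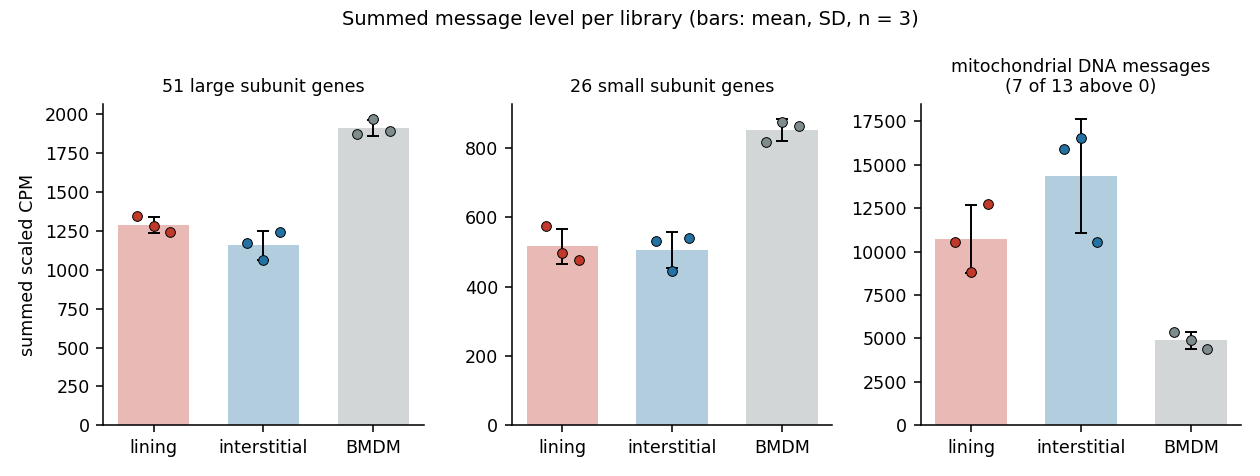
Summed scaled CPM (y axis) per library for large subunit genes, small subunit genes and the messages of mitochondrial DNA, in lining, interstitial and BMDM libraries (points; bars, mean; whiskers, SD, n = 3). The 3 BMDM points lie above the sorted ones for both subunits and below them for the mitochondrial messages.

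Single genes differed widely in level in each group. The median gene had a mean of 22.4 CPM in lining, 20.8 CPM in interstitial and 32.3 CPM in BMDM. Means, not divided by length, ran from 4.45 to 71.5 CPM in lining, from 3.27 to 64.9 CPM in interstitial and from 3.69 to 76.8 CPM in BMDM. Levels of different genes are comparable only per length, taken here as the union of all annotated exons, which is longer than any single transcript for many genes. On that scale the highest means over the 9 libraries belonged to Mrps21 (41.5 CPM per kb), Mrpl27 (33.9), Mrpl28 (32.9), Mrpl12 (30.7) and Mrpl54 (29.9). Mrpl27 is the counterpart of a bacterial protein close to the peptidyl transferase centre, and Mrpl12 that of the protein forming the flexible stalk, which binds translation factors. The lowest were Mrpl23 (0.828 CPM per kb), whose bacterial counterpart lies at the tunnel exit, Mrps35 (2.06), Mrps10 (2.26), Mrpl47 (2.83) and Mrpl32 (3.09). The order differed between groups, since the highest was Mrpl27 in lining (38.9 CPM per kb), Mrps21 in interstitial (30.9) and Mrps6 in BMDM (59.2), while Mrpl23 was lowest in each. Exonic length ranged from 607 to 8631 bases, with a median of 2255, against a median of 4430 over tested protein-coding genes. Across the groups, the mean was highest in lining for 12 of the 77 genes, in interstitial for 3 and in BMDM for 62. It was lowest in lining for 29, in interstitial for 42 and in BMDM for 6.

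Of the 78 genes, 5 share over 10% of their exonic bases with another gene on the same strand, where reads were not counted for either. Beside Mrpl53 these are Mrps34 (37.0%, with Nme3), Mrps18c (23.2%, with Gm43511), Mrps24 (15.4%, with Urgcp) and Mrps6 (15.1%, with Slc5a3). Levels of these genes are lower limits to that extent. In addition, 5 processed pseudogenes with symbols of the family held 30 counts over the 9 libraries together.

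Lining macrophages were first set against interstitial macrophages, the comparison of the 2 populations of the joint. By the edgeR quasi-likelihood test adjusted over 12610 genes, 1 of the 77 genes was higher in lining and 0 were lower, where 3.74% of all genes tested were higher and 2.05% lower. With plain library totals in place of the scaling, 380 of all genes were higher and 326 lower, against 471 higher and 259 lower with it. At an unadjusted p under 0.05 there were 6 of the 77 genes of the family, beside 2436 of the 12610 genes tested. DESeq2 called 2 of the family higher and 0 lower, against 723 and 608 over all genes. For limma-voom these were 1 and 0, against 618 and 341. With edgeR on the 6 sorted libraries alone they were 0 and 0, against 255 and 111 of 10830 genes tested. The median log2 fold change of the family was 0.09, against -0.01 over all genes tested.

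The called gene was Mrpl13, the counterpart of a bacterial protein needed early in the assembly of the large subunit (ENSMUSG00000022370, chromosome 15, 55534094 to 55557748, minus strand). It had 50.9, 40.2 and 39.0 CPM in lining A, B and C, against 24.8, 27.0 and 19.1 CPM in interstitial D, E and F. BMDM had 41.0, 46.6 and 46.1 CPM. Every lining library was above every interstitial library, and the lining and BMDM ranges overlapped. Mrpl13 was 1.82-fold higher in lining than in interstitial (log2 0.86 ± 0.21 SE, edgeR adjusted p = 0.0313). Interstitial macrophages were 1.88-fold lower than BMDM (log2 -0.91 ± 0.20, edgeR adjusted p = 0.00320), while lining against BMDM gave a log2 difference of -0.05 ± 0.20 (edgeR adjusted p = 0.874). The lining to interstitial call was lost when lining A, lining B, interstitial F or any single BMDM library was left out, with edgeR adjusted p-values up to 0.104 and log2 values of 0.69 to 0.90 in those fits. It was also lost with the 6 sorted libraries alone (edgeR adjusted p = 0.140) and without the 3 shallowest libraries (edgeR adjusted p = 0.110).

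The 3 lining values lay apart from the 3 interstitial values in 9 genes. They were above in 8, Mrpl13, Mrpl19, Mrpl22, Mrpl33, Mrpl39, Mrpl46, Mrpl48 and Mrps31, and below in Mrps27. Over all genes tested, 9.92% lay apart above and 8.66% below. Of these, Mrps31, a small subunit protein specific to mitochondria, had 27.6, 17.1 and 23.7 CPM in lining, against 9.75, 11.4 and 11.7 CPM in interstitial. Its difference was 1.03 ± 0.28 on the log2 scale and missed the threshold (edgeR adjusted p = 0.0550). BMDM had 16.9, 17.7 and 20.6 CPM, overlapping the lining libraries and above every interstitial library. Interstitial macrophages were below BMDM by a log2 value of -0.74 ± 0.27 (edgeR adjusted p = 0.0447), a call lost under 8 of 16 alternatives, with any single interstitial or BMDM library left out among them. Mrps31 and the other separated genes outside the fixed naming rule are named here after their values were seen.

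Lining macrophages were then set against BMDM, a standard culture model of macrophages. Of the 77 genes, 29 (37.7%) were lower in lining and 1 was higher, where 20.5% of all genes tested were lower and 23.1% higher (edgeR adjusted p under 0.05). The median log2 fold change of the family was -0.63, against 0.00 over all genes tested, and 63 of 77 values were below 0. The 29 lower genes ranged from -3.93 to -0.64 with a median of -1.17. Libraries did not overlap for 48 genes lower and 4 genes higher in lining, against 33.9% and 29.2% of all genes tested. Among large subunit genes 19 of 50 were lower and 1 higher, and among small subunit genes 10 of 26 were lower. Of the small subunit genes, 9 of 17 with a bacterial counterpart and 1 of 9 specific to mitochondria were lower. In the large subunit these were 9 of 30 and 10 of 20, the other way round. For interstitial macrophages against BMDM the small subunit gave 8 of 17 and 4 of 9, and the large 13 of 30 and 10 of 20. Differences between these shares were not tested. Without BMDM G or without BMDM H the number lower was 16. Over all genes the number lower fell too, from 2579 of 12610 to 1860 of 12832 without BMDM G and 1851 of 12840 without BMDM H.

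Interstitial macrophages set against the same BMDM libraries gave 35 of 77 genes (45.5%) lower and 0 higher, where 21.3% of all genes tested were lower and 23.4% higher (edgeR adjusted p under 0.05). By unadjusted p, 41 of the 77 genes were under 0.05 in either direction, and so were 6574 of the 12610 genes tested, a similar share. DESeq2 and limma-voom also called 0 genes of the family higher. The number lower was 35 with DESeq2, 55 with limma-voom and 56 without the 3 shallowest libraries. Over all genes the number lower rose too, from 2688 of 12610 to 3713 of 12610 with limma-voom and 4107 of 14149 without those libraries. DESeq2, run without the filter, called 2758 lower. The median log2 fold change was -0.68, against -0.01 over all genes tested, and 70 of 77 values were below 0. Libraries did not overlap for 56 genes lower and 2 genes higher in interstitial, against 33.8% and 28.4% of all genes tested. Among large subunit genes 23 of 50 were lower, and among small subunit genes 12 of 26. Since both comparisons use the 3 BMDM libraries, they are not independent. By their calls, 24 genes were lower in both, 5 in lining alone, 11 in interstitial alone and 36 in neither, and Mrpl33 was higher in lining alone. A call in 1 comparison and not in the other does not show that lining and interstitial differ, and of the genes called in 1 of them only Mrpl13 was called between lining and interstitial.

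**Figure D2:**
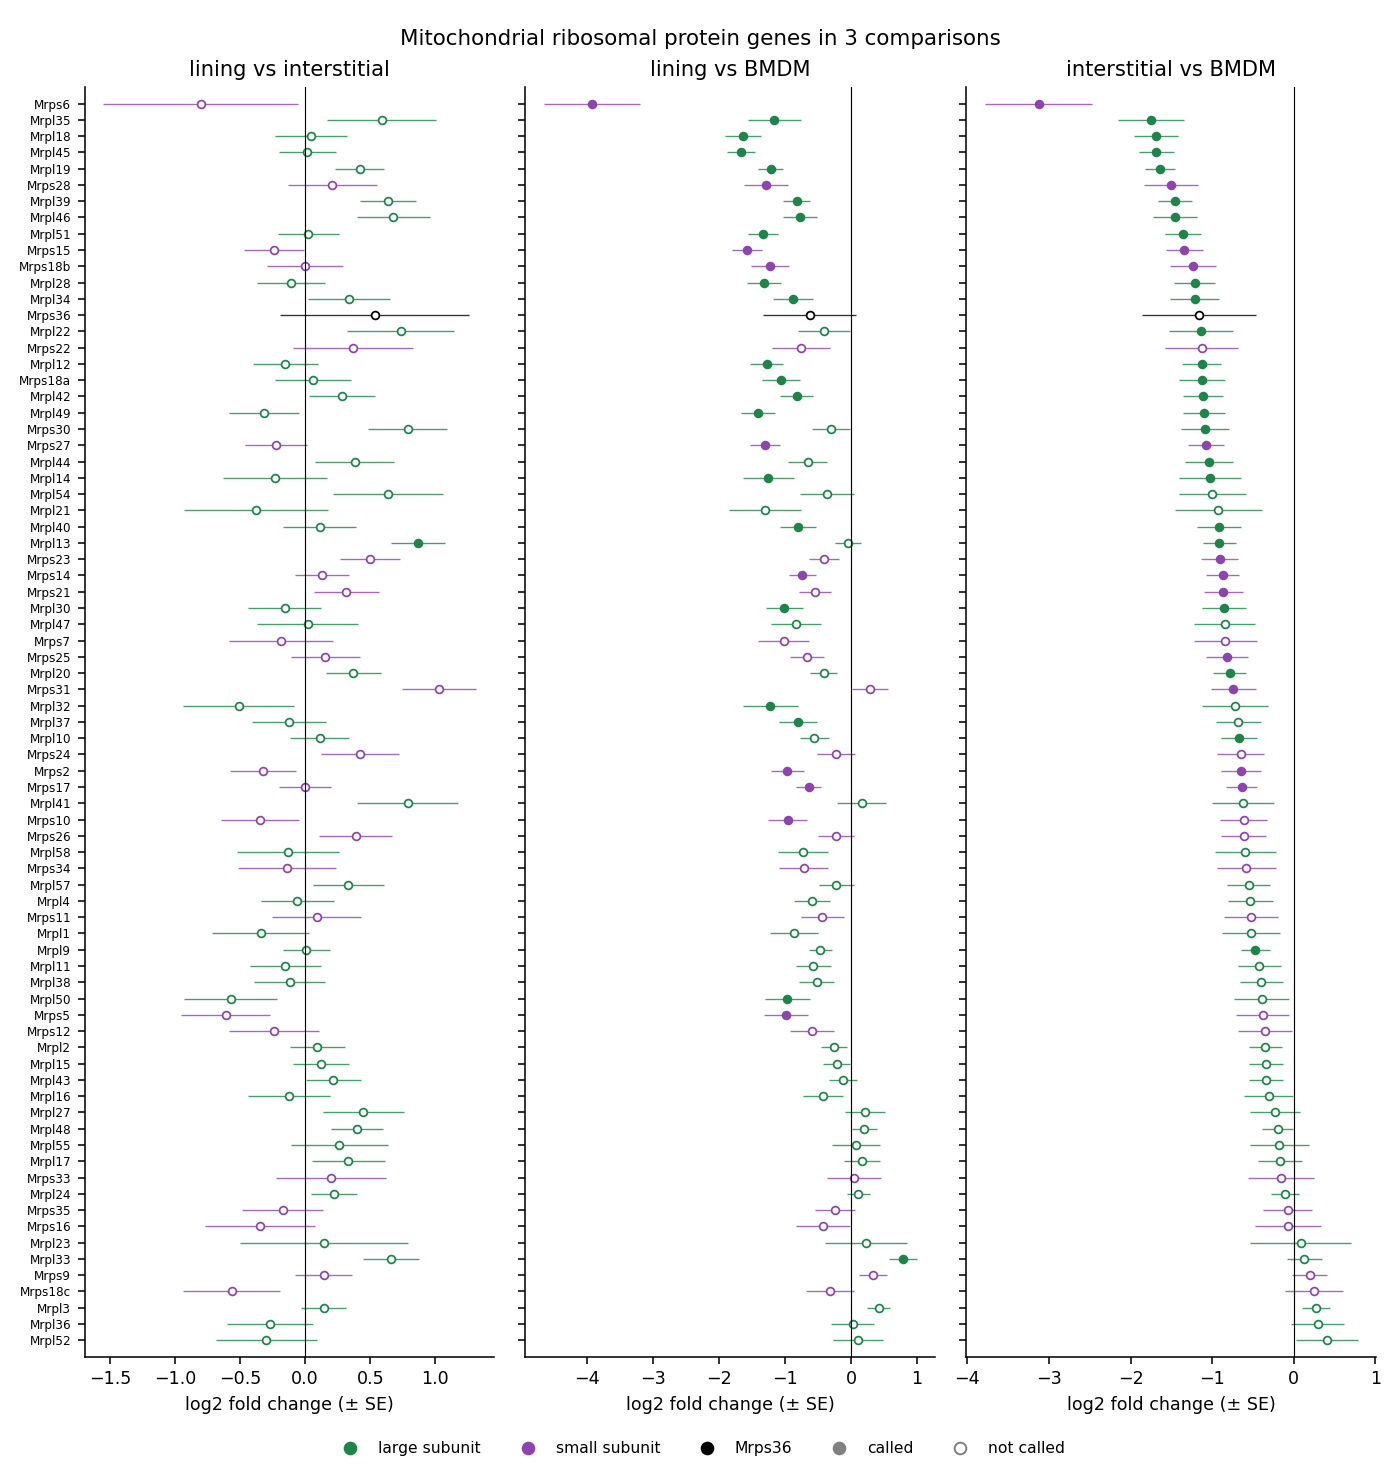
Log2 fold change with its SE (x axis) of the 77 tested genes (rows, ordered by interstitial against BMDM) in the 3 comparisons, with filled points for called genes and colours for the subunit. Filled points lie left of 0 in both comparisons with BMDM except Mrpl33, and a single filled point, Mrpl13, appears for lining against interstitial.

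**Figure D3:**
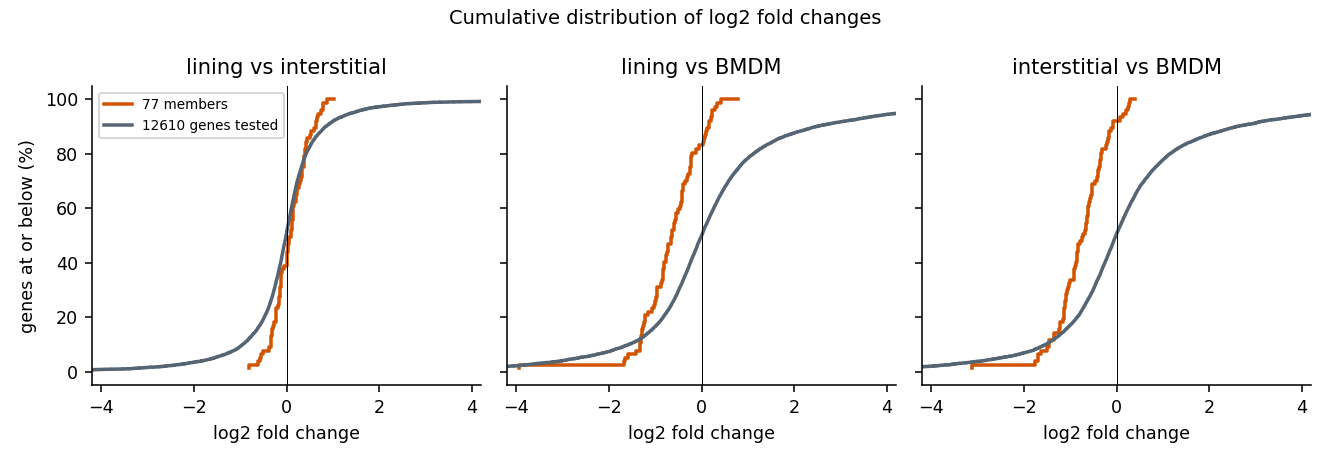
Cumulative share of genes (y axis, %) at or below each log2 fold change (x axis) for the 77 genes of the family and all 12610 genes tested. In both comparisons with BMDM the family's curve lies to the left, with medians of -0.63 and -0.68, and for lining against interstitial its median is 0.09.

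Mrps6, the small subunit counterpart of bacterial S6, had the most negative fold change in both comparisons with BMDM (ENSMUSG00000039680, chromosome 16, 92058270 to 92112227, plus strand). It had 6.79, 2.48 and 4.51 CPM in lining and 0, 6.73 and 12.96 CPM in interstitial, against 58.0, 55.7 and 73.2 CPM in BMDM. All sorted libraries were far below all BMDM libraries, and interstitial D had no count. Mrps6 was 15.3-fold lower in lining than in BMDM (log2 -3.93 ± 0.73 SE, edgeR adjusted p = 0.00162) and 8.74-fold lower in interstitial than in BMDM (log2 -3.13 ± 0.66, edgeR adjusted p = 0.00326). The interstitial value was -3.79 without interstitial F and -3.90 with limma-voom, and the lining value -4.71 without the 3 shallowest libraries. Lining and interstitial overlapped, with a log2 difference of -0.80 ± 0.75 (edgeR adjusted p = 0.620).

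Mrpl45, Mrpl18 and Mrpl51, all of the large subunit, had much the same values in both sorted groups. Mrpl45, which lies by the tunnel exit and contacts the inner membrane, had 16.0, 24.1 and 21.0 CPM in lining and 16.8, 20.02 and 24.2 CPM in interstitial, against 64.7, 64.3 and 68.8 CPM in BMDM. It was 3.18-fold lower in lining than in BMDM (log2 -1.67 ± 0.22 SE, edgeR adjusted p = 6.6e-05) and 3.21-fold lower in interstitial than in BMDM (log2 -1.68 ± 0.21, edgeR adjusted p = 5.38e-05). The highest sorted library had 24.2 CPM and the lowest BMDM library 64.3, so the groups were far apart. Mrpl18, a protein of the central protuberance, had 16.0, 30.9 and 20.6 CPM in lining and 17.3, 18.9 and 31.0 CPM in interstitial, against 68.6, 74.3 and 74.8 CPM in BMDM. Its log2 fold changes against BMDM were -1.64 ± 0.27 in lining (edgeR adjusted p = 0.000469) and -1.69 ± 0.27 in interstitial (edgeR adjusted p = 0.000362). Mrpl51, specific to mitochondria, had 43.6, 23.2 and 26.7 CPM in lining and 32.8, 27.7 and 29.9 CPM in interstitial, against 78.4, 75.7 and 76.3 CPM in BMDM. Lining A stood above the other sorted libraries and still below every BMDM library. Mrpl51 was 2.52-fold lower in lining and 2.56-fold lower in interstitial than in BMDM (edgeR adjusted p = 0.000543 and 0.000419).

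Mrps15, the counterpart of a bacterial protein that binds early to the small subunit RNA, and Mrpl49, specific to mitochondria, completed the 6 most negative genes in lining. Mrps15 had 20.4, 18.0 and 12.4 CPM in lining and 17.3, 21.8 and 20.4 CPM in interstitial, against 51.1, 52.0 and 49.1 CPM in BMDM. It was 2.99-fold lower in lining than in BMDM (log2 -1.58 ± 0.23 SE, edgeR adjusted p = 0.000159). Mrpl49 had 10.7, 21.1 and 16.1 CPM in lining and 24.4, 17.2 and 20.8 CPM in interstitial, against 41.6, 44.5 and 45.7 CPM in BMDM. Neither gene had a sorted library that reached a BMDM library.

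For interstitial macrophages the 6 most negative genes also included Mrpl35 and Mrpl19, with bacterial counterparts in the large subunit, and Mrps28 of the small subunit. Mrpl35 had 11.2, 15.3 and 19.5 CPM in lining and 3.10, 15.6 and 9.98 CPM in interstitial, against 33.1, 36.4 and 34.3 CPM in BMDM. It was 3.37-fold lower in interstitial than in BMDM (log2 -1.75 ± 0.40 SE, edgeR adjusted p = 0.00389), with interstitial D the lowest of all libraries. Mrpl19 had 19.1, 17.4 and 22.1 CPM in interstitial, against 57.2, 63.1 and 61.4 CPM in BMDM, and was 3.11-fold lower (log2 -1.64 ± 0.19, edgeR adjusted p = 2.29e-05). In lining it had 27.6, 25.4 and 25.2 CPM, each above the interstitial libraries, with a log2 difference of 0.42 ± 0.19 between lining and interstitial that was not called (edgeR adjusted p = 0.259). Mrps28 had 7.98, 8.10 and 10.2 CPM in interstitial, against 22.2, 26.6 and 25.9 CPM in BMDM, and was 2.84-fold lower (edgeR adjusted p = 0.00277).

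**Figure D4:**
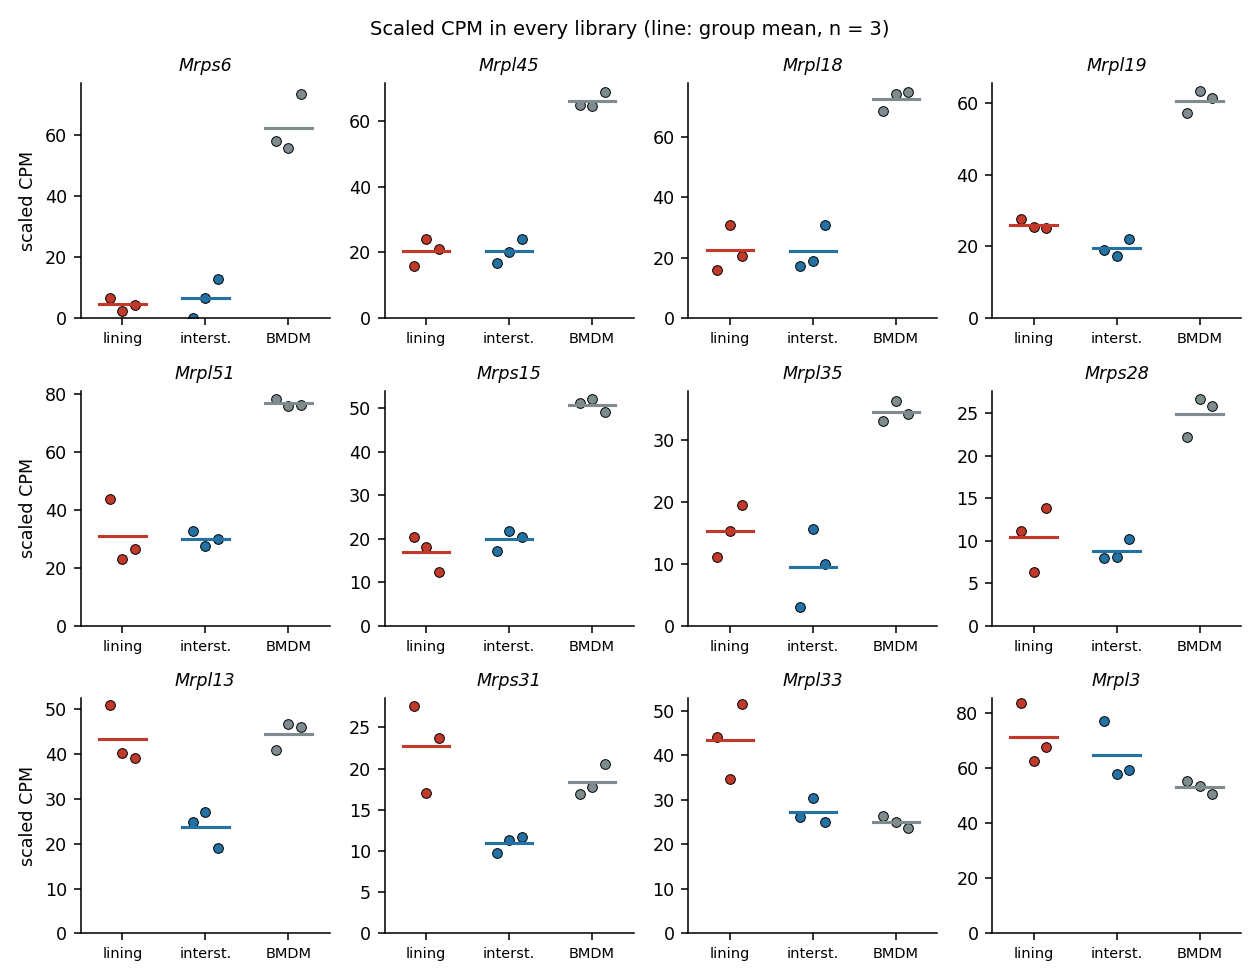
Scaled CPM (y axis) of 12 genes in each lining, interstitial and BMDM library (points; lines, group means, n = 3). The first 8 genes are lower in both sorted groups than in BMDM, Mrpl13 and Mrps31 are lowest in interstitial, Mrpl33 is highest in lining, and Mrpl3 was not called.

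Mrpl33 was the single gene higher in lining than in BMDM (ENSMUSG00000106918, chromosome 5, 31596935 to 31664384, plus strand). This small protein is the counterpart of bacterial L33. It had 44.1, 34.6 and 51.4 CPM in lining and 26.2, 30.5 and 25.1 CPM in interstitial, against 26.3, 24.99 and 23.7 CPM in BMDM. Each lining library was above all the others, and the interstitial and BMDM ranges overlapped. Mrpl33 was 1.73-fold higher in lining than in BMDM (log2 0.79 ± 0.21 SE, edgeR adjusted p = 0.00975), and its log2 difference was 0.13 ± 0.21 between interstitial and BMDM (edgeR adjusted p = 0.645) and 0.66 ± 0.22 between lining and interstitial (edgeR adjusted p = 0.109). The call was lost without BMDM I (edgeR adjusted p = 0.0680), with no filter on low counts (0.0511) and without the 3 shallowest libraries (0.0896, log2 0.41).

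Mrpl3 and Mrps36 were among the genes that passed the test in no comparison. Mrpl3, the counterpart of a bacterial protein that reaches towards the peptidyl transferase centre, had 83.9, 62.6 and 68.0 CPM in lining and 77.1, 58.0 and 59.5 CPM in interstitial, against 55.3, 53.6 and 50.7 CPM in BMDM. Each sorted library was above each BMDM library, with log2 differences of 0.42 ± 0.17 for lining (edgeR adjusted p = 0.0683) and 0.28 ± 0.17 for interstitial (edgeR adjusted p = 0.213). Mrps36 had 5.33, 5.92 and 4.13 CPM in lining and 0, 5.55 and 4.25 CPM in interstitial, against 7.44, 9.09 and 7.52 CPM in BMDM, and was called in neither comparison.

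The S18 family offers paralogues in both subunits, since Mrps18a lies in the large subunit and Mrps18b and Mrps18c in the small. Mrps18a averaged 23.5 ± 7.38 CPM in lining and 23.3 ± 7.12 in interstitial, against 49.5 ± 2.41 in BMDM (SD, n = 3 each). Mrps18b averaged 11.6 ± 1.94 and 11.4 ± 3.04, against 27.3 ± 3.0 CPM. Both were lower in each sorted group than in BMDM, with log2 values of -1.06 ± 0.28 and -1.12 ± 0.28 for Mrps18a and -1.24 ± 0.29 and -1.23 ± 0.28 for Mrps18b (edgeR adjusted p between 0.00386 and 0.00936). Mrps18c averaged 12.6 ± 4.61 CPM in lining and 18.6 ± 7.51 in interstitial, against 15.5 ± 1.03 in BMDM, and its groups overlapped. Its log2 differences were -0.32 ± 0.36 for lining and 0.24 ± 0.36 for interstitial (edgeR adjusted p = 0.508 and 0.608). Mrpl46 and Mrps11 lie head to head on chromosome 7 and overlap by 413 bases at their starts. Mrpl46 was lower in both sorted groups than in BMDM (log2 -0.77 ± 0.27 in lining and -1.45 ± 0.27 in interstitial, edgeR adjusted p = 0.0328 and 0.00101, the lining call being lost under 5 of 16 alternatives), whereas Mrps11 had -0.43 ± 0.33 and -0.52 ± 0.33 (edgeR adjusted p = 0.315 and 0.223).

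Other features of the libraries moved with the split between sorted cells and BMDM, and their part in the result was not tested. The 5 genes of the cycling cell list summed to 96.5 to 318 CPM in lining and 95.3 to 305 in interstitial, against 2475 to 2682 in BMDM, and all 5 were lower in both. The 8 immediate early and heat shock genes induced by tissue dissociation summed to 4969 to 7968 CPM in lining and 4587 to 8465 in interstitial, against 411 to 443 in BMDM, and all 8 were higher in both. The 7 fibroblast genes summed to 146 to 199 CPM in lining and 171 to 285 in interstitial, against 2.03 to 2.83 in BMDM, and all 7 were higher in both. Neutrophil genes summed to 0 to 6.78 CPM in lining and 0 to 78.6 in interstitial, against 40.6 to 52.6 in BMDM, with Ly6g at 0 in lining, and 3 of the 5 tested were lower in lining than in BMDM. Dendritic cell genes summed to 3.88 to 40.5 CPM in lining, against 89.3 to 141 in interstitial, with Xcr1 at 0 in all lining libraries, and to 2.94 to 3.83 in BMDM, and 3 of the 4 tested were higher in lining and 4 in interstitial than in BMDM. Erythroid genes summed to 16.3 to 151 CPM in lining and 12.1 to 422 in interstitial, against 0.745 to 4.66 in BMDM, and 2 of 3 were higher in each of the 2 comparisons with BMDM. Endothelial genes summed to 7.27 to 12.6 CPM in lining and 26.4 to 42.9 in interstitial, against 45.6 to 50.6 in BMDM. Of the 4 tested, 1 was higher and 1 lower in lining than in BMDM, and 3 were higher and 1 lower in interstitial than in BMDM. The lymphocyte, mast cell, skeletal muscle and adipocyte lists summed to at most 8.55, 16.8, 15.7 and 0.954 CPM in any library.

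Cytosolic ribosomal proteins and nuclear subunits of oxidative phosphorylation, the machinery that includes the respiratory chain, are the groups most like this one. The cytosolic list was taken by symbol, as protein-coding genes starting with Rpl or Rps followed by a digit. That rule also admits genes that are not ribosomal subunits, such as kinases with Rps6k symbols, and leaves out the Rplp and Rpsa genes. Its counts and medians are those of the symbol list. Of 86 tested cytosolic ribosomal protein genes, 49 (57.0%) were lower and 2 higher in lining than in BMDM (median log2 -0.41), and 28 (32.6%) were lower and 3 higher in interstitial than in BMDM (median -0.28). Of 79 tested nuclear oxidative phosphorylation genes, 20 (25.3%) were lower and 1 higher in lining (median -0.18), and 27 (34.2%) were lower and 2 higher in interstitial (median -0.33). Over all genes tested 20.5% were lower in lining and 21.3% in interstitial, so the share of oxidative phosphorylation genes lower in lining lay near that of all genes. These counts and medians stand beside those of the mitochondrial ribosome as a description, and differences between the groups of genes were not tested.

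Most of the messages with counts among those that the mitochondrial ribosome translates went the opposite way. Of the 13 messages encoded in mitochondrial DNA, 7 had counts, and 6 of them were higher in each sorted group than in BMDM. mt-Nd2, a subunit of complex I, averaged 820 ± 174 CPM in lining and 1161 ± 388 in interstitial, against 248 ± 41.9 in BMDM (SD, n = 3 each). Its log2 fold changes were 1.72 ± 0.25 and 2.23 ± 0.26 (edgeR adjusted p = 0.000175 and 2.4e-05). The exception among the 7 was mt-Nd6, at 6.51 ± 1.19 CPM in lining and 3.41 ± 3.69 in interstitial, against 8.85 ± 0.840 in BMDM. It was called in neither comparison with BMDM. At these low levels its value in interstitial D, 0.887 CPM, lay under the 3-count floor of that library (1.33 CPM). The summed level was 10707 ± 1946 CPM in lining and 14325 ± 3283 in interstitial, against 4893 ± 500 in BMDM. mt-Atp6, mt-Atp8, mt-Co2, mt-Co3, mt-Nd3 and mt-Nd4l are listed at 0 in every library, so the sum covers the other 7. Reads at several places or over several genes were not counted, and whether this accounts for the zeros was not tested. These zeros are therefore not read as levels.

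The other genes of mitochondrial translation are given by list, where 20.5% of all genes tested were lower in lining and 21.3% in interstitial than in BMDM. Of the 5 ribosomal subunits with other names, Chchd1 and Gadd45gip1 were lower in both sorted groups than in BMDM, and Dap3, Ptcd3 and Aurkaip1 were not called. Chchd1 averaged 17.8 ± 4.01 CPM in lining and 14.6 ± 6.196 in interstitial, against 38.7 ± 2.32 in BMDM (SD, n = 3 each). Gadd45gip1 averaged 9.26 ± 2.57 CPM in lining and 11.1 ± 2.72 in interstitial, against 27.8 ± 2.16 in BMDM (SD, n = 3 each). Of 14 translation factors, 4 (28.6%) were lower in lining and 6 (42.9%) in interstitial than in BMDM. Lrpprc, which stabilises mitochondrial messages, averaged 49.4 ± 11.4 CPM in lining and 49.4 ± 4.73 in interstitial, against 103 ± 2.22 in BMDM, and had a log2 fold change of -1.07 ± 0.18 in each (edgeR adjusted p = 0.000445 and 0.000418). Tufm, the elongation factor that brings aminoacyl-tRNA to the ribosome, averaged 33.7 ± 9.39 CPM in lining and 27.9 ± 5.86 in interstitial, against 59.6 ± 2.56 in BMDM. Of 24 assembly and RNA maturation genes, 2 (8.33%) were lower in lining and 4 (16.7%) in interstitial, both below the share of all genes, and Mterf3 was higher in interstitial. Of 17 aminoacyl-tRNA synthetases, 5 (29.4%) were lower in lining and 1 (5.88%), Sars2, in interstitial. Of 10 genes of mitochondrial DNA replication and transcription, 1 was lower in lining and 2 in interstitial, no more than the share of all genes. Mterf2 was lower in both, with 0 to 0.485 CPM in lining libraries, 0 in each interstitial library and 1.75 to 1.86 in BMDM. It passed the filter on low counts through BMDM alone. Tfam, which packages and transcribes mitochondrial DNA, was lower in interstitial (log2 -0.86 ± 0.30, edgeR adjusted p = 0.0358).

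Of 8 tested transcription factors and coactivators of mitochondrial biogenesis, Ppargc1b was higher and Pprc1 lower in both sorted groups than in BMDM. Ppargc1b averaged 11.8 ± 5.26 CPM in lining and 29.96 ± 7.97 in interstitial, against 3.57 ± 0.63 in BMDM, with log2 fold changes of 1.76 ± 0.38 and 3.08 ± 0.39 (edgeR adjusted p = 0.00300 and 5.37e-05). Pprc1 averaged 42.9 ± 12.8 CPM in lining and 34.8 ± 10.1 in interstitial, against 90.9 ± 4.65 in BMDM. Gabpa, which binds the ETS motif shown in capitals above, was 93.8 ± 14.9 CPM in interstitial, against 70.9 ± 0.960 in BMDM, and was called higher (log2 0.40 ± 0.15, edgeR adjusted p = 0.0463). In lining against BMDM, Gabpa was not called.

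**Figure D5:**
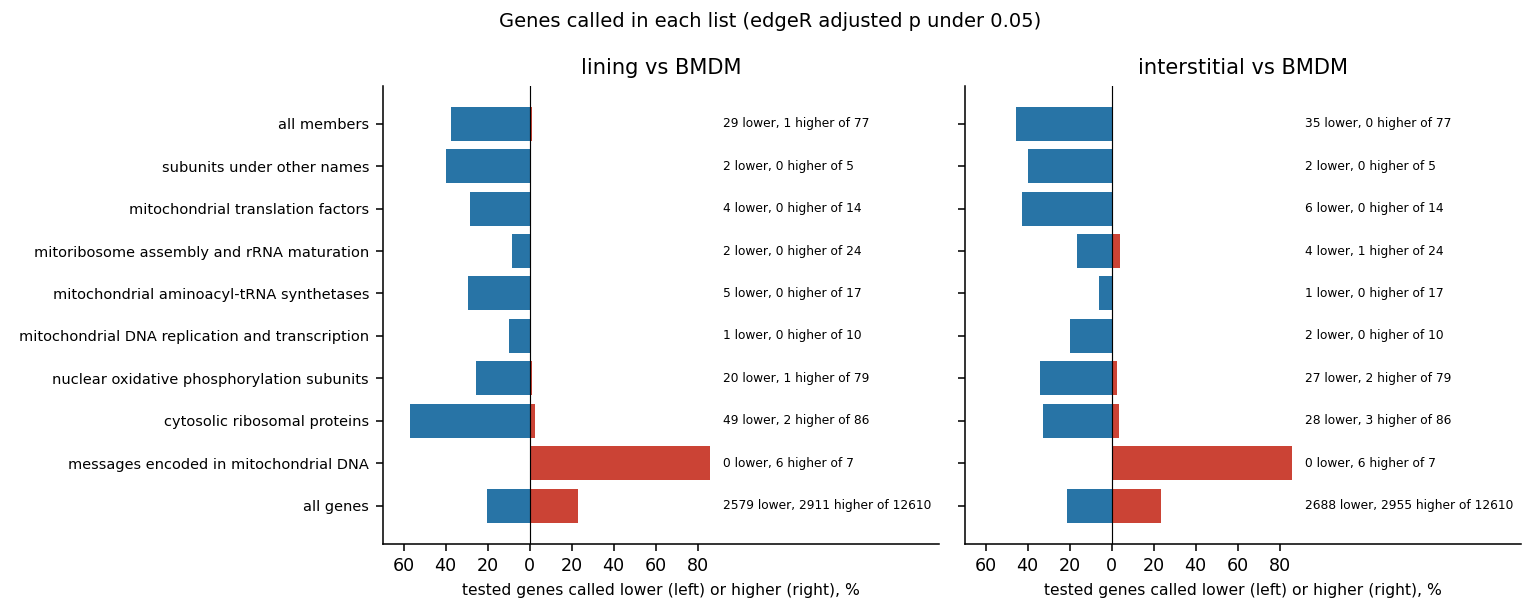
Share of tested genes in each list called lower (blue, left) or higher (red, right) than BMDM in lining and in interstitial macrophages (x axis, %), with counts beside each bar. Of the mitochondrial ribosomal genes 37.7% are called lower in lining and 45.5% in interstitial, with 1 and 0 genes called higher. Of the 7 messages of mitochondrial DNA 6 are called higher in each, and all genes tested are called in both directions.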

How the data were processed

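Poly(A) RNA of 9 macrophage samples was sequenced from 500 ng in TruSeq stranded libraries as single 101 bp reads, per the labels' protocols. The authors deposited raw read counts per gene in 1 table. Its header names featureCounts 1.6.1, reverse-strand counting over Ensembl exons (GRCm38, release 91), and neither an option for reads at several places nor for reads over several genes, so such reads are missing. The submitters' processing notes add STAR 2.5.4a, cutadapt 1.15, bcl2fastq 2.17.1.14, DESeq2 1.20.0 and R 3.5.0.

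A symbol was found for 53274 of 53465 identifiers, and GENCODE of the same build gave gene types. In edgeR 4.0.16 (R 4.3.3), filterByExpr (minimum count 10, minimum total 15) kept 12610 genes, scaled by TMM. All 9 libraries entered 1 quasi-likelihood fit with 3 group means and 6 residual degrees of freedom. The 3 contrasts therefore share 1 estimate of spread per gene, BMDM included. Median coefficients of variation of the family were 5.12% in BMDM and 26.8% in each sorted group, so the shared spread is not that of the sorted libraries alone. Each of the 3 contrasts had a 2-sided test, adjusted by Benjamini-Hochberg over the genes kept, and calls were made at an adjusted p under 0.05. SE is the log2 fold change divided by the root of F, and SD is between libraries. Levels are CPM scaled by TMM. No 2 libraries of a group agreed within sampling noise. Scripts were tested on simulated data.

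Genes of the family were named where called (all if at most 10, otherwise the 6 most negative and the 6 largest), as the 5 highest and 5 lowest per kb, where untested, and as the S18 paralogues. Other names were added after their values were seen. The family and all lists were chosen with earlier results of these data known. Alternatives were other scalings (relative log expression, plain totals), no filter, DESeq2 1.42.0, limma-voom (limma 3.58.1), only the 6 libraries compared, and leaving out each library. Leaving out the 3 shallowest libraries together (lining A, lining C and interstitial D) was chosen after seeing the data.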

Additional observations from a re-analysis of the deposited data

Results flagged for a closer look

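Mrpl13 differed between the sorted groups by the test of the difference itself. Its log2 fold change against BMDM was -0.05 ± 0.20 SE in lining and -0.91 ± 0.20 in interstitial, and the difference was 0.86 ± 0.21 (edgeR adjusted p = 0.0313, every lining library above every interstitial library, n = 3 each). Leaving out interstitial F gave the smallest difference, 0.69, which was not called (edgeR adjusted p = 0.0739). The call was lost under 8 of 16 alternatives, including the fit to the 6 sorted libraries alone (edgeR adjusted p = 0.140).

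Mrpl48, a large subunit protein specific to mitochondria, had every lining library above and every interstitial library below the 3 BMDM libraries. Over all genes tested, 9.92% had every lining library above every interstitial library, and the share with BMDM in between was not counted. It had 33.0, 32.6 and 40.2 CPM in lining and 27.9, 25.2 and 27.2 CPM in interstitial, against 30.4, 29.5 and 32.0 CPM in BMDM. The opposite directions were not tested as such, and the difference between lining and interstitial was 0.40 ± 0.20 on the log2 scale and was not called (edgeR adjusted p = 0.299).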

How the results depend on the processing

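The number of genes higher in lining than in interstitial (1) was 2 with DESeq2, 0 with only the 6 libraries compared, 0 to 3 with single libraries left out and 2 without the 3 shallowest libraries. The number lower stayed at 0 under every alternative run. The number higher in lining than in BMDM (1) was 0 with no filter, 2 with only the 6 libraries compared, 0 to 1 with single libraries left out and 0 without the 3 shallowest libraries. The number lower in lining than in BMDM (29) ran from 29 to 42 over scalings, filter and tools, and from 16 to 38 with single libraries left out (16 without BMDM G and 16 without BMDM H), and 16 genes were lower under every alternative. The number lower in interstitial than in BMDM (35) ran from 24 to 40 with single libraries left out. It was 55 with limma-voom and 56 without the 3 shallowest libraries, and 24 genes were lower under every alternative. Numbers over all genes moved too. Those lower in lining than in BMDM went from 2579 of 12610 to 1860 of 12832 without BMDM G and 1851 of 12840 without BMDM H. Those lower in interstitial went from 2688 of 12610 to 3713 of 12610 with limma-voom and 4107 of 14149 without the 3 shallowest libraries. The cause of these shifts was not tested. With plain library totals the median log2 fold change of lining against BMDM was -0.11 over all genes and -0.74 over the family. The Mrpl13 call was lost under 8 of 16 alternatives (edgeR adjusted p up to 0.140) and the Mrpl33 call in lining under 3 of 16 (edgeR adjusted p up to 0.0896, log2 0.41 to 0.89). The other 12 of 14 gene and comparison pairs named for their fold change kept their call under every alternative. Calls of lower level in lining than in BMDM were lost under 3 alternatives for Mrps10, 4 for Mrpl32 and 5 each for Mrpl35 and Mrpl46. In the 3 shallowest libraries (lining A, lining C and interstitial D, 2194920 to 2700843 counts) the median gene of the family had 49 to 54 counts, against 682 to 719 in BMDM. No paired analysis was run, because the labels give each library its own letter and pair no lining with an interstitial library. Any pairing of the sorts is thus ignored by these tests.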
